A study of Mus musculus with 45 samples.

Results

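The genes described here encode extracellular and membrane-anchored metalloproteases and their inhibitors. They are all entries of the count table that map to a protein-coding mouse gene named Adam, Adamts, Adamtsl, Mmp or Timp followed directly by a number, with a mean of at least 0.5 CPM (reads of a gene per 1e6 reads counted in the library) over the 45 libraries. Of 83 such genes at any level, 52 reached that minimum, out of 54532 genes in the table. They comprise 11 of 33 Adam genes, 18 of 19 Adamts genes, all 5 Adamtsl genes, 14 of 22 Mmp genes and all 4 Timp genes. Timp1 (0.515 CPM) and Mmp13 (0.622 CPM) were just above the minimum, and Adam33 (0.493 CPM) and Mmp25 (0.387 CPM) were just below it. Each of the 52 genes had reads in every library. Timp1 alone was over the minimum through 1 condition: it averaged 0.941 CPM in LP TTX/NMDA and 0.461 CPM over the libraries of the other 8 conditions, so its difference in comparisons with LP TTX/NMDA is given as a description.

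RNA was sequenced from primary hippocampal neurons of newborn C57BL/6N mice, grown with B27 and 1% rat serum, with AraC added early to limit dividing cells, and treated on DIV10/11 per the labels (DIV11 for RNA sequencing per the methods). There were 9 conditions with 5 libraries each, 1 from each of 5 culture preparations (numbered 1, 3, 6, 7 and 8 in the labels). Neurons were untreated (control) or received 50 µM bicuculline (Bic), a GABA type A receptor antagonist that evokes action potential (AP) firing, for 0.5, 1 or 2 h. The short protocol (SP) added 1 µM tetrodotoxin (TTX), which blocks AP firing, or TTX plus 30 µM NMDA after 0.5 h of Bic, for a further 0.5 h. The long protocol (LP) added TTX, TTX plus NMDA or 50 µM TBOA, a blocker of glutamate uptake, after 1 h of Bic, for a further 1 h. TTX was set against Bic alone of equal duration (passive effect), TTX/NMDA against TTX (active effect), and LP TTX/NMDA (LP total effect) or LP TBOA (glutamate spillover) against 2 h Bic. No cell type was sorted from these cultures.

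ADAM proteins are anchored in the cell membrane, where the catalytically active ones shed the outer parts of receptors, adhesion proteins and growth factors. ADAMTS proteases are secreted and cut matrix molecules, among them the chondroitin sulphate proteoglycans that form perineuronal nets around neurons. ADAMTS-like proteins resemble them but have no protease domain, and matrix metalloproteases (MMPs) are secreted or membrane-bound enzymes with a broad range of matrix and cell surface substrates. The tissue inhibitors of metalloproteases (TIMPs) bind the active site of MMPs and of some ADAM and ADAMTS enzymes. In the brain, these enzymes are known for their part in matrix turnover at synapses, in the shedding of synaptic adhesion proteins and in the response to injury.

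Upstream sequences are shown for 3 of these genes that are described further on, Adamts1 for its rise during AP firing, Adamts3 for its fall with NMDA, and Timp1, which had its highest mean level with NMDA in the LP and was included through that condition. They are the 250 bases before the start of the gene in RefSeq's annotation of GRCm38.p6, written 5′ to 3′ on the strand of the gene. Capitals mark TGACG, the core of the cAMP response element (CRE), and TATAAA, the TATA box. The windows lie at chr16:85803114-85803363 (minus strand), chr5:89883335-89883584 (minus strand) and chrX:20869916-20870165 (plus strand).
Adamts1: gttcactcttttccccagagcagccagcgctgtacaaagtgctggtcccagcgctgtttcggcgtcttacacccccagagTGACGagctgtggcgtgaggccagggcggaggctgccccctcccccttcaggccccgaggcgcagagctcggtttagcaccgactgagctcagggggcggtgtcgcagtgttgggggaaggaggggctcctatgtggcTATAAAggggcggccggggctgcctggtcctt
Adamts3: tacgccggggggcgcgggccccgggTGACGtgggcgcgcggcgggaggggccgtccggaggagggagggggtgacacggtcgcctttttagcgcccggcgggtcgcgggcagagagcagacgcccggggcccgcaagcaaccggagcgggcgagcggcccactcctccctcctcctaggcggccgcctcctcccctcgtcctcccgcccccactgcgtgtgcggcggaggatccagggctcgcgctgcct
Timp1: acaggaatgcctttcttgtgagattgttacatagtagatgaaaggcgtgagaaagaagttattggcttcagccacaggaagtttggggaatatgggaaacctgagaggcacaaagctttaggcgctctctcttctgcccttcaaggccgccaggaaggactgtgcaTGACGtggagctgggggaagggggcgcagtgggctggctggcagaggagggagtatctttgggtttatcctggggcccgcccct
The TGACG core began 170 bases before the start of Adamts1, 225 before that of Adamts3 and 84 before that of Timp1, and the TATA box of Adamts1 began 32 bases before its start. Promoters were found for 35 of the 52 genes (39 windows). In these windows on both strands, TGACG stood in 7 (17.9%) against 17.8% of all 32851 promoters, the whole CRE TGACGTCA, which contains that core, in 0 against 1.55%, the AP-1 site TGANTCA in 4 (10.3%) against 6.75%, and TATAAA in 4 (10.3%) against 12.4%. The AP-1 site was found in windows of Adam19, Mmp3, Mmp12 and Mmp13, and Adamts8, Adamts15, Adam11 and Mmp2 were among the 17 genes with no entry. The shares of promoters with each motif thus lay near those of all promoters, and a match is a run of letters, not a binding site.

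Libraries held between 11316580 and 81129276 counts, and the 52 genes together took 0.221 to 0.282% of them. The neuronal label was met by its markers: all 8 neuronal genes examined had reads in every library, with a summed level of 5796 to 7681 CPM. Markers of other cells were present too, with summed levels of 877 to 1917 CPM for 6 astrocyte genes, 99.5 to 448 CPM for 5 fibroblast genes and 4.43 to 8.76 CPM for 6 microglial genes. The endothelial marker Cldn5 was at 0 in 27 libraries and the microglial marker P2ry12 in 6. Levels below are CPM normalized by TMM, given for preparations 1, 3, 6, 7 and 8 in this order, and means are ± SD (n = 5). Differences are log2 fold changes with their standard error (SE) from edgeR's quasi-likelihood test, called at an adjusted p under 0.05 over all genes with at least 1 read. A value given with its SE alone is a log2 fold change. A paired fit with the preparation as a block, over the genes that pass edgeR's filter on low counts, is given where it moved the number of calls by over 1.5 times. It is also given for the LP active and LP total effects and for the genes that were otherwise not called.

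**Figure D1:**
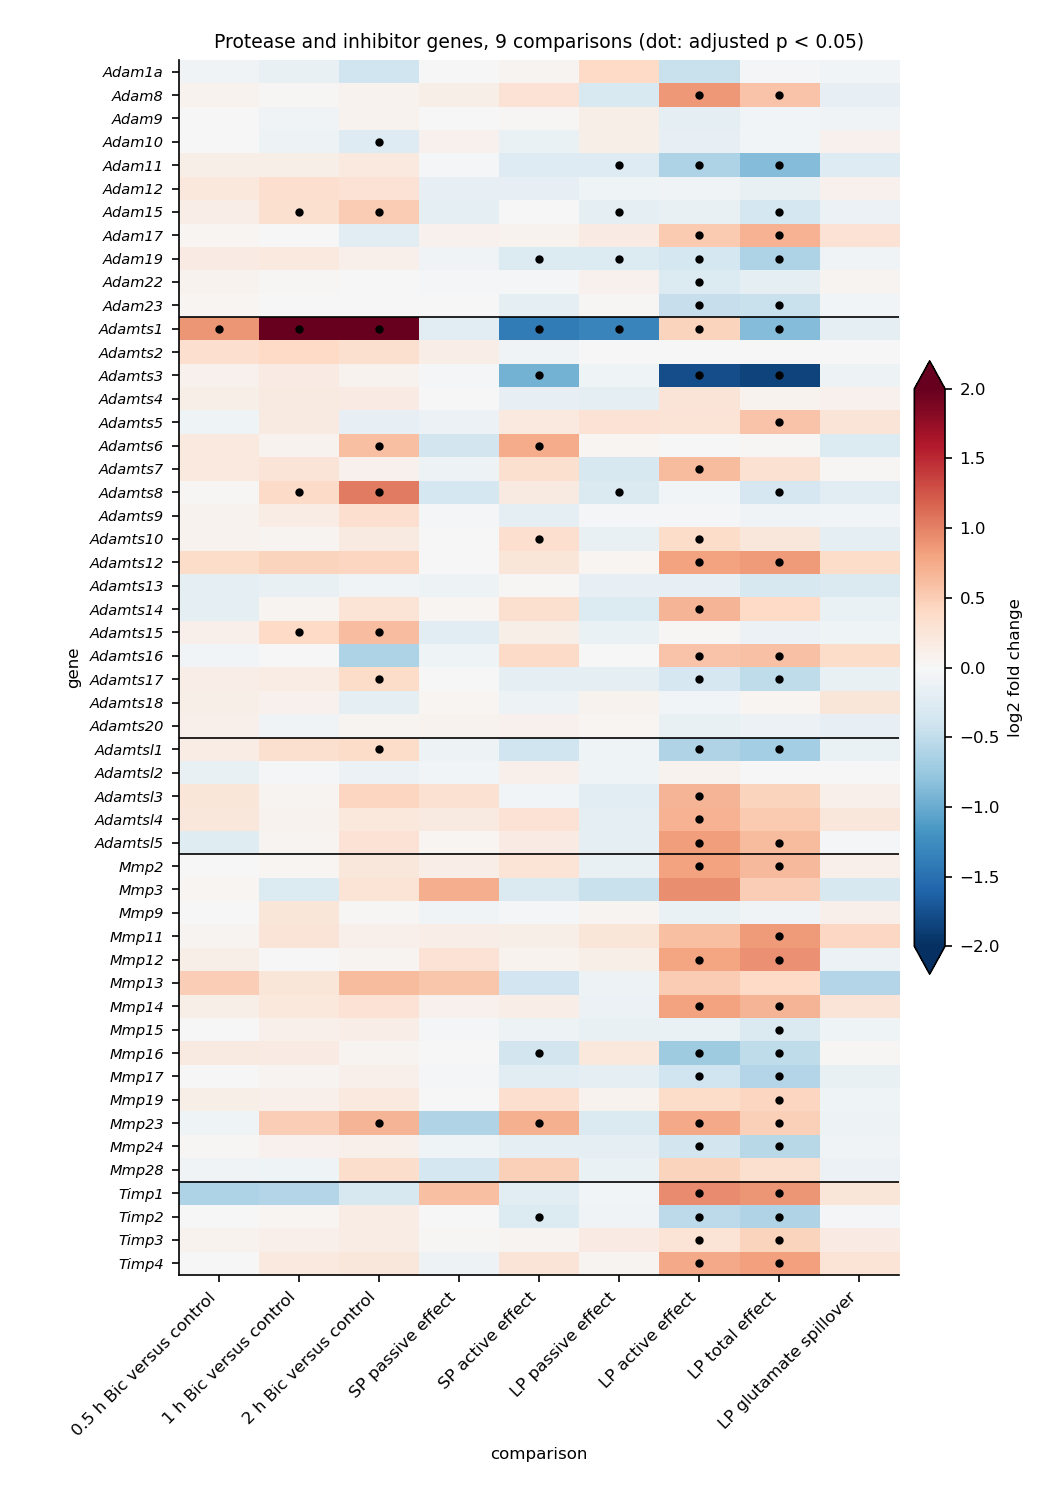
Log2 fold change of the 52 genes (rows, by family) in the 9 comparisons (columns), from blue (lower) to red (higher), with colours saturating at 2 in either direction and a dot where the adjusted p was under 0.05. Most dots lie in the LP active and LP total effects, with 29 genes each, while the SP passive effect and glutamate spillover have none.

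Levels in untreated neurons were compared per length of exon, since longer transcripts give more reads. Timp2, which inhibits MMPs broadly and takes part in activating pro-MMP2, was by far the highest at 179.7 ± 16.4 CPM per kb. The next were Adam11 at 30.2 ± 6.20 CPM per kb, a catalytically inactive ADAM of neurons, and the membrane-type MMP Mmp24 at 29.1 ± 1.65. They were followed by Adam10 (22.8 CPM per kb), the chief α-secretase, Adam15 (22), Mmp17 (17.7), Adam9 (16.5) and Adam22 (15.4), which with Adam23 (10.2) and Adam11 binds the secreted Lgi proteins at synapses. The highest ADAMTS genes were Adamts1 (7.89 CPM per kb) and Adamts3 (7.48), and the highest ADAMTS-like gene was Adamtsl2 (1.28). At the other end, Adamtsl3 (0.120 CPM per kb), Adamtsl4 (0.150) and Adamtsl5 (0.168) were the lowest. Between neighbours in this order, the ranges of the 5 control libraries overlapped everywhere except between Timp2 and Adam11 and between Mmp24 and Adam10.

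**Figure D2:**
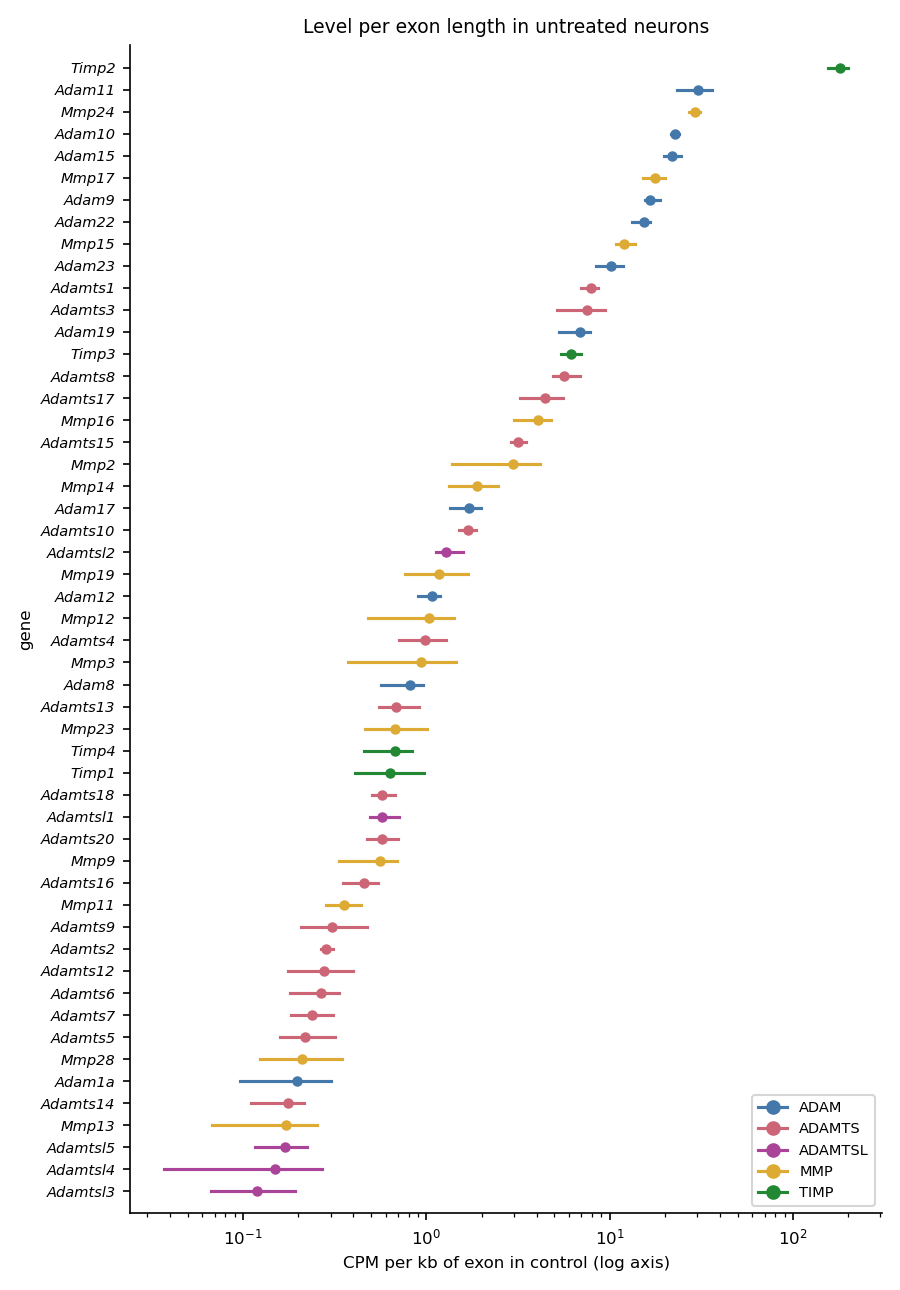
Level of the 52 genes in the 5 control libraries per kilobase of exon, on a log axis, with the mean as a point and the lowest and highest library as the ends of the line. Timp2 stands alone at the top at 179.7 CPM per kb, and the lines of nearly all neighbours overlap.

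AP firing raised few of these genes, and most of those that rose were ADAMTS proteases. After 2 h Bic, 8 of 52 genes were higher and 1 was lower, against 4.24% and 4.78% of all genes tested, and 5 of the 8 were ADAMTS genes (Adamts1, Adamts6, Adamts8, Adamts15 and Adamts17). After 1 h, 4 were higher (0.965% of all genes) and 0 lower (0.195%, with 0 of the 52 lower at an unadjusted p under 0.05 or with DESeq2), and after 0.5 h, Adamts1 alone was higher (0.289%) and 0 lower (0% of all genes, and 0 of the 52 at an unadjusted p under 0.05 or with DESeq2). The median log2 fold change of the 52 genes was 0.15 after 2 h against −0.0061 over all genes tested. The summed level of the astrocyte markers was 931 to 1209 CPM in the control and 945 to 1353 CPM after 2 h Bic, and that of the fibroblast markers 99.5 to 286 and 116 to 326 CPM. The 3 comparisons share the control libraries.

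Adamts1, an aggrecan- and versican-cleaving protease, had 38.1, 45.9, 37, 46 and 42.2 CPM in the control. It had 60.1, 85.6, 77.1, 75.3 and 87.8 CPM after 0.5 h Bic and 192, 181, 156, 185 and 172 CPM after 1 h. After 2 h it reached 307, 316, 267, 265 and 199 CPM. Every library at each time lay above every library of the control, and the means rose from 41.8 ± 4.20 to 271 ± 46.3 CPM. The rise was 1.84-fold at 0.5 h (log2 fold change 0.88, SE 0.093, adjusted p = 4.79e-10), 4.21-fold at 1 h (log2 fold change 2.07, SE 0.086, adjusted p = 6.66e-22) and 6.40-fold at 2 h (log2 fold change 2.68, SE 0.10, adjusted p = 3.08e-21).

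Adamts8, another proteoglycan-cleaving member, had 25.9, 22.7, 31.8, 27.8 and 22.5 CPM in the control and 37.2, 28.4, 38, 35.1 and 32.8 CPM after 1 h Bic, where the groups overlapped. After 2 h it had 59.1, 51.1, 57.5, 56.1 and 48.1 CPM, above every control library. Its increase was 1.31-fold at 1 h (log2 fold change 0.38, SE 0.10, adjusted p = 0.029) and 2.06-fold at 2 h (log2 fold change 1.04, SE 0.092, adjusted p = 7.66e-11). Without preparation 1 or 8, the call at 1 h was lost for Adamts8 (adjusted p = 0.17 and 0.057) and for Adam15 (adjusted p = 0.093 and 0.20). For Adam15 it was lost without preparation 7 too (adjusted p = 0.15), and 2 to 4 genes were called.

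Adamts15, an aggrecanase as well, had 35.1, 30.1, 32.1, 36.5 and 30.8 CPM in the control and 52.8, 53.5, 45.2, 51.6 and 52.7 CPM after 2 h. It rose from 32.9 ± 2.74 to 43.7 ± 4.64 CPM at 1 h (log2 fold change 0.40, SE 0.087) and to 51.2 ± 3.38 CPM at 2 h (0.62, SE 0.080), with no overlap between the groups at either time. Adam15, a membrane-anchored sheddase, rose by a log2 fold change of 0.31 (SE 0.082) at 1 h and 0.51 (SE 0.076) at 2 h, from 135 ± 12.5 to 195 ± 6.09 CPM. Called at 2 h only were Mmp23 (0.69, SE 0.20), Adamts6 (0.61, SE 0.17), Adamtsl1 (0.37, SE 0.12) and Adamts17 (0.36, SE 0.10), but whether they differed between 1 and 2 h was not tested. Adam10 was the gene that fell, from 106, 110.0, 118, 111 and 116 CPM to 98.4, 98.1, 92.1, 92.7 and 89.6 CPM without overlap (log2 fold change −0.27, SE 0.072, adjusted p = 0.012). All 9 genes changed in the same direction in 5 of 5 preparations, and for 6 of them the groups did not overlap. Both are likely for a called gene, and their share among all called genes was not counted.

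In the paired fit, 13 genes were higher and 2 lower after 2 h Bic, against 14.4% and 15% of the genes it tested. Beside the 9 above, it called Adam11 (0.22), Mmp14 (0.31), Adam12 (0.30), Adamts9 (0.33) and Adamts12 (0.42) as higher and Adamts16 (−0.65) as lower, as log2 fold changes. Leaving out preparation 6 or 7 gave 6 calls each at 2 h against 9. Calls were lost for Adam10 (without preparation 6, 7 or 8), Mmp23 (6 or 7), Adamts6 (3 or 6), Adamts17 (3) and Adamtsl1 (1, 3, 6 or 7), at adjusted p-values of 0.052 to 0.20.

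**Figure D3:**
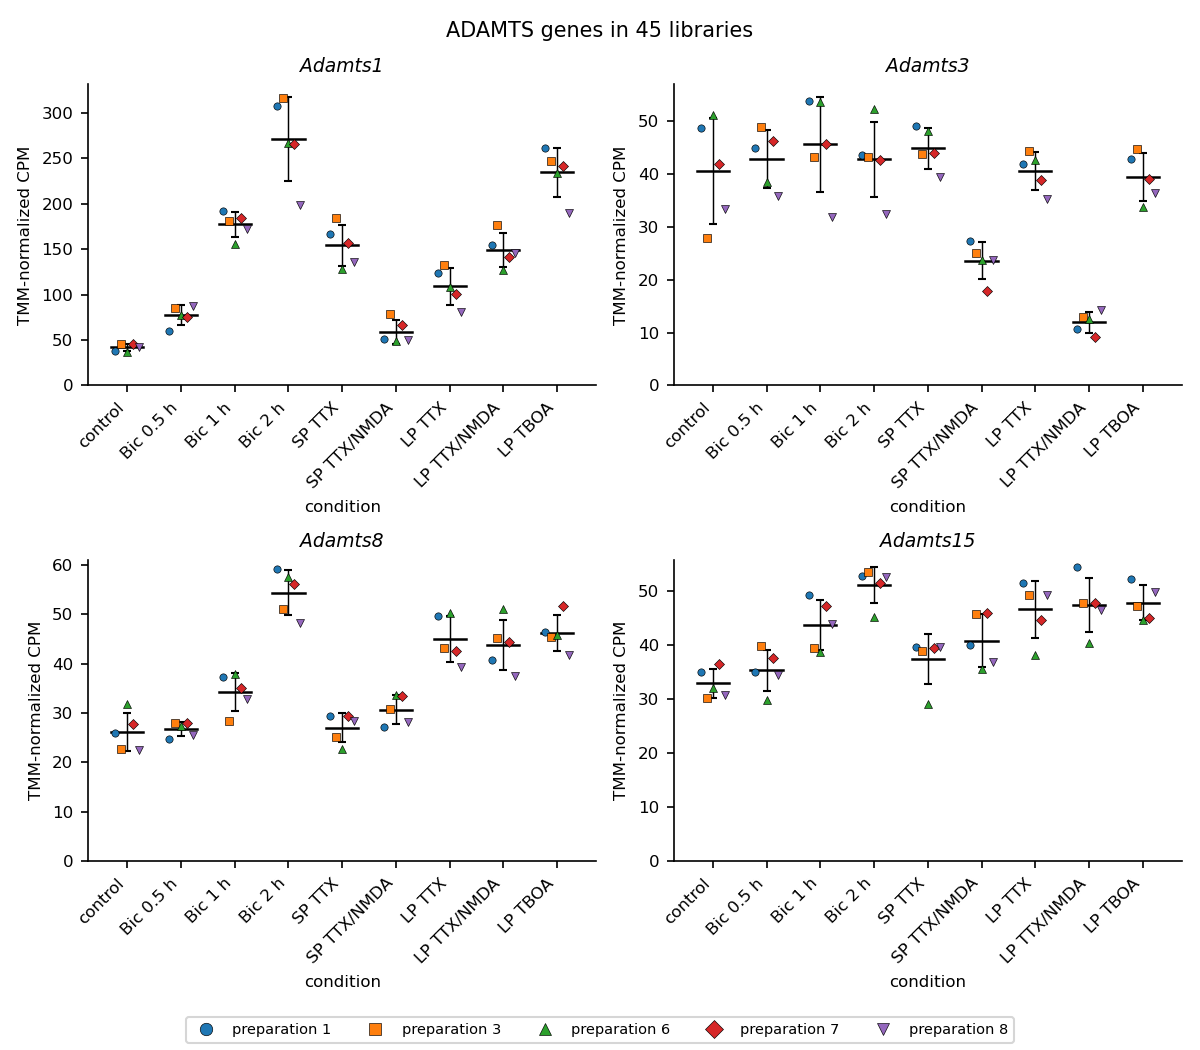
TMM-normalized CPM of Adamts1, Adamts3, Adamts8 and Adamts15 in the 45 libraries by condition, with a symbol for each culture preparation and the mean ± SD (n = 5) in black. Adamts1 climbs with Bic to 271 ± 46.3 CPM and is lower in SP TTX/NMDA than in SP TTX but higher in LP TTX/NMDA than in LP TTX, and Adamts3 falls with NMDA in both protocols, to 11.9 ± 2.02 CPM in the LP.

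Few of these genes were lower with TTX than with Bic alone, and in the LP Adamts1 was so by far the most. In the SP, Adamts1 differed by −0.20 and Mmp23 by −0.60, neither of them called. In the SP passive effect, 0 of 52 genes were higher and 0 lower with edgeR, against 0.0157% and 0.252% of all genes, and DESeq2 and the paired fit also called 0. At an unadjusted p under 0.05, 6 genes were lower and 0 higher (3.75% of all genes in either direction), among them Adamts8 (−0.35, SE 0.085, adjusted p = 0.064). These 6 genes, Adamts1, Adamts6, Adamts8, Adamts15, Adam15 and Mmp23, were all among the 8 raised after 2 h Bic. The SP passive effect and that comparison share no library. The calls rose to 1 without preparation 3 and to 2 without preparation 8.

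In the LP passive effect, 0 genes were higher and 5 were lower, against 3.03% and 1.62% of all genes. At an unadjusted p under 0.05, 2 were higher and 9 lower, against 15.1% of all genes in either direction, and DESeq2 called 7 genes. Adamts1 had 123, 132, 109, 101 and 80.6 CPM with TTX, below every library of 2 h Bic, and fell 2.5-fold (log2 fold change −1.32, SE 0.10, adjusted p = 5.53e-11). Adamts8 had 49.7, 43.3, 50.2, 42.6 and 39.4 CPM with TTX, overlapping with 2 h Bic (log2 fold change −0.28, SE 0.074, adjusted p = 0.019). Adam11 (−0.25, SE 0.073), Adam15 (−0.20, SE 0.059) and Adam19 (−0.27, SE 0.080), a sheddase of neuregulin, were lower than after 2 h Bic as well. Adam15 averaged 169 ± 13.4 CPM after 1 h Bic, when TTX was added, 170 ± 9.92 CPM with TTX and 195 ± 6.09 CPM after 2 h Bic. Its lower value is thus relative to 2 h Bic, and TTX was not tested against 1 h Bic. Only Adamts1 was called in a fit over all 45 libraries. Leaving out preparation 3, 6 or 7 left 2 calls each. The call of Adam15 was lost without any 1 of the 5 preparations, that of Adam19 without 3, 6 or 7, that of Adam11 without 3 or 6 and that of Adamts8 without 7, at adjusted p-values of 0.067 to 0.24. The paired fit instead called 4 genes higher and 10 lower, against 15.7% and 16.2% of its genes. The higher ones were Adam1a (0.41), Mmp16 (0.20), Timp3 (0.15) and Adam9 (0.12), and the further lower ones were Mmp24 (−0.20), Mmp17 (−0.19), Adamts17 (−0.19), Mmp15 (−0.16) and Adamts15 (−0.16).

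NMDA in the SP lowered 2 ADAMTS genes most. In the SP active effect, 3 of 52 genes were higher and 5 lower, against 0.956% and 3.32% of all genes. Adamts1 had 166, 184, 128, 157 and 136 CPM with TTX and 50.7, 78.1, 48.9, 67 and 49.6 CPM with TTX/NMDA. The groups did not overlap, and its level fell 2.63-fold (log2 fold change −1.40, SE 0.10, adjusted p = 8.26e-12).

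Adamts3, which removes the N-propeptide of procollagens and cleaves reelin, had 49.1, 43.7, 48.3, 44 and 39.4 CPM with TTX and 27.4, 25.1, 23.8, 18 and 23.8 CPM with TTX/NMDA. All 5 libraries with NMDA were below all 5 without it, a 1.92-fold decrease (log2 fold change −0.94, SE 0.087, adjusted p = 2.03e-09). Its level had not passed the test at any time of Bic, with means of 40.6 ± 9.97 CPM in the control and 45.7 ± 9.02 CPM after 1 h.

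The other lower genes were Mmp16 (−0.36, SE 0.075), a membrane-type MMP, Timp2 (−0.27, SE 0.066) and Adam19 (−0.27, SE 0.081). Timp2 went from 727 ± 21.3 to 607 ± 33.8 CPM without overlap. Higher were Adamts6 (0.73, SE 0.16), Mmp23 (0.71, SE 0.18) and Adamts10 (0.33, SE 0.10), the first and last of which are known as partners of fibrillin microfibrils. Adamts6 rose from 2.04, 1.35, 1.68, 1.94 and 1.51 CPM to 2.69, 2.99, 2.72, 3.15 and 2.66 CPM with no overlap. All 8 genes moved in the same direction in 5 of 5 preparations, which is likely for a called gene and was not counted over all called genes. Without preparation 7, 5 calls were left. Calls were lost for Timp2 (without 7), Adam19 (1, 6 or 7), Adamts10 (1 or 7) and Mmp23 (3 or 6), at adjusted p-values of 0.051 to 0.16. The paired fit called 3 genes higher and 10 lower, against 5.93% and 10.3% of its genes, and added Adamtsl1 (−0.37), Adam11 (−0.23), Mmp17 (−0.20), Adam23 (−0.18) and Mmp24 (−0.18) to those that fell. Of the cell type markers, 1 of 8 neuronal ones was higher and 2 lower, and 1 of 6 astrocyte ones was lower. The fibroblast sum was 104 to 286 CPM in SP TTX and 126 to 396 CPM in SP TTX/NMDA. The part of the markers in these changes was not tested.

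NMDA in the LP changed 29 of the 52 genes, with Adamts3, the neuronal Adam11, Adam22 and Adam23, 3 of the 5 membrane-type MMPs and Timp2 lower, and Adam8, Adam17, Timp3, Timp4, 4 MMPs (Mmp2, Mmp12, Mmp14 and Mmp23) and 6 ADAMTS genes higher. In this LP active effect, 18 of 52 were higher and 11 lower, against 11.6% and 11.8% of all genes tested. Without Timp1, these were 17 and 11 of 51. The genes tested include those with as little as 1 read, while the 52 averaged at least 0.5 CPM. In the paired fit, 25 of the 52 (48.1%) were higher and 14 (26.9%) lower, against 33.6% and 28.5% of its genes. The median log2 fold change of the 52 genes was 0.047, against 0.11 over all genes tested and 0.0029 over genes with a mean of at least 0.5 CPM. By family, 2 Adam genes were higher and 4 lower of 11, 6 Adamts genes higher and 2 lower of 18, 3 Adamtsl genes higher and 1 lower of 5, 4 Mmp genes higher and 3 lower of 14, and 3 Timp genes, with Timp1 among them, higher and 1 lower of 4. All 29 moved in the same direction in 5 of 5 preparations, and the groups did not overlap for 11 of them. Both are likely for a called gene, and their share among all called genes was not counted. Fewer cells of a type and less RNA per cell cannot be told apart in these cultures.

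Among the genes that fell, Adamts3 had 42, 44.5, 42.7, 38.8 and 35.3 CPM with TTX and 10.6, 13, 12.6, 9.20 and 14.3 CPM with TTX/NMDA. The groups lay far apart, a 3.41-fold decrease (log2 fold change −1.77, SE 0.10, adjusted p = 2.82e-14). The neuronal Adam11 fell from 188, 167, 166, 172 and 141 CPM to 108, 115, 119, 105 and 103 CPM, also without overlap (log2 fold change −0.61, SE 0.072, adjusted p = 1.21e-07). The related Lgi receptors Adam23 (−0.47, SE 0.066) and Adam22 (−0.28, SE 0.062) fell too. Of the 5 membrane-type MMPs, Mmp16 went from 38.2, 42.2, 44.4, 43.2 and 46.2 CPM to 22.9, 27.9, 24.8, 23 and 32.9 CPM (−0.71, SE 0.088), Mmp17 (−0.41, SE 0.072) and Mmp24 (−0.37, SE 0.065) fell, Mmp14 rose, and Mmp15 did not pass the test (−0.14, SE 0.086). Timp2, the most abundant gene, went from 742 ± 50.1 to 517 ± 13.3 CPM (log2 fold change −0.53, SE 0.064, adjusted p = 1.97e-07). Adamtsl1 (−0.61, SE 0.13), Adam19 (−0.35, SE 0.088) and Adamts17 (−0.33, SE 0.10) complete the list, the last without preparation 1 at an adjusted p of 0.092. Adamtsl1 overlaps Sh3gl2 on the same strand, where reads that hit both genes were not counted, and Sh3gl2 changed by −0.49 (SE 0.070, adjusted p = 2.97e-06).

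Inhibitors were among the genes with higher levels. Timp1, an inhibitor induced by injury in glia, had 0.429, 0.403, 0.314, 0.619 and 0.379 CPM with TTX and 1.01, 0.889, 0.905, 1.03 and 0.554 CPM with TTX/NMDA. The groups overlapped only through preparation 8 with NMDA, and the level was 1.92-fold higher with NMDA (log2 fold change 0.94, SE 0.26), in the condition that carried Timp1 over the minimum. Timp4 rose from 6.40, 4.79, 3.95, 6.00 and 3.49 CPM to 11, 7.72, 5.22, 11.9 and 5.70 CPM, with overlap (log2 fold change 0.76, SE 0.19, adjusted p = 0.0028). Timp3, which inhibits ADAM17 and ADAMTS enzymes too, rose by 0.28 (SE 0.10), a call lost without preparation 1 or 3 (adjusted p = 0.14 and 0.058). Timp1, Timp4 and Timp3 overlap Syn1, Syn2 and Syn3 on the opposite strand, and the counts were strand-specific. Syn1 fell by 0.40 on the log2 scale (SE 0.065), Syn2 by 0.36 (SE 0.068) and Syn3 by 0.74 (SE 0.12) in the same comparison.

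Mmp12, known as macrophage elastase, had 6.74, 7.11, 12.7, 11.2 and 6.55 CPM with TTX and 11.7, 13.8, 22.8, 17.7 and 12.3 CPM with TTX/NMDA, a 1.73-fold increase (log2 fold change 0.79, SE 0.17, adjusted p = 7.40e-04). Preparation 6 was the highest in both groups, and the groups overlapped. Mmp2, a gelatinase that MMP14 and TIMP2 help to activate, had 11.5, 17.2, 7.49, 12 and 4.82 CPM with TTX and 22.2, 23.4, 13.8, 25.7 and 8.25 CPM with TTX/NMDA (log2 fold change 0.80, SE 0.23, adjusted p = 0.011). The groups overlapped, since preparation 8 with NMDA stayed below 3 of the libraries with TTX, and DESeq2 did not call the difference (adjusted p = 0.11). Mmp14, which sits in the membrane, rose from 15.7, 16.5, 9.19, 14.6 and 8.15 CPM to 29.4, 23.1, 17.1, 29.8 and 12.9 CPM (0.80, SE 0.18), and Mmp23 rose as well (0.76, SE 0.17).

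Adam8, an ADAM of immune and activated glial cells, went from 3.35, 3.44, 3.41, 3.70 and 2.54 CPM to 6.60, 5.49, 6.33, 6.84 and 5.18 CPM, with every library with NMDA above every one without it (log2 fold change 0.87, SE 0.14, adjusted p = 1.36e-05). Adam17, the sheddase of TNF and of EGF receptor ligands, rose from 13.1, 12.1, 10.8, 13.5 and 10.8 CPM to 19.4, 17, 13.3, 20.5 and 16.7 CPM with overlap (0.52, SE 0.11).

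Adamts12, one of the pair of ADAMTS that cut cartilage oligomeric matrix protein, had 5.32, 6.26, 2.69, 4.99 and 2.14 CPM with TTX and 10.9, 10.5, 4.45, 8.49 and 3.29 CPM with TTX/NMDA (log2 fold change 0.81, SE 0.25, adjusted p = 0.017). The groups overlapped, and the call was lost without preparation 1 (adjusted p = 0.065) and with DESeq2 (0.13). Its partner Adamts7 rose by 0.63 (SE 0.22), which was lost without preparation 1 or 7. Adamtsl5 went from 0.987, 1.11, 0.628, 1.04 and 0.433 CPM to 2.05, 1.15, 1.32, 1.92 and 1.33 CPM without overlap (log2 fold change 0.84, SE 0.24, adjusted p = 0.0091), and at an adjusted p of 0.051 without preparation 1. Adamtsl4 (0.70, SE 0.25), Adamtsl3 (0.68, SE 0.23), the procollagen peptidase Adamts14 (0.68, SE 0.24), Adamts16 (0.58, SE 0.17) and Adamts10 (0.37, SE 0.11) also rose, and each of these 5 calls was lost without preparation 6. The first 3 of them were lost without preparation 1 too, Adamtsl3 and Adamtsl4 also without 7 and Adamts14 without 3. Adamts1 was higher with NMDA here, at 155, 177, 127, 141 and 145 CPM against 123, 132, 109, 101 and 80.6 CPM with TTX, and the groups overlapped (log2 fold change 0.45, SE 0.094, adjusted p = 5.85e-04).

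Markers of other cell types moved with the same comparison. In the LP active effect, 5 of 6 astrocyte markers, 5 of 7 of the oligodendrocyte lineage, 5 of 5 of fibroblasts, 3 of 6 endothelial and mural and 2 of 6 microglial markers were higher, 1 astrocyte marker (Slc1a2) was lower, and 3 of 8 neuronal markers were lower and 0 higher. From LP TTX to LP TTX/NMDA, the range of the summed level went from 961–1442 to 1085–1917 CPM for astrocyte markers. It was 114 to 286 and 159 to 448 CPM in these groups for fibroblast markers, and 101 to 168 and 159 to 313 CPM for the oligodendrocyte lineage. For microglial markers the sum was 5.36 to 7.36 and 6.28 to 8.76 CPM, for endothelial and mural markers 18.6 to 22.2 and 26.4 to 31.4 CPM, and for neuronal markers 6878 to 7681 and 5930.5 to 6489 CPM. The astrocyte markers Gfap and Aqp4 rose by 0.80 and 0.85 on the log2 scale and Slc17a7, of excitatory neurons, fell by 0.83. The part of these markers in the changes of the 18 higher and 11 lower genes was not tested.

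**Figure D4:**
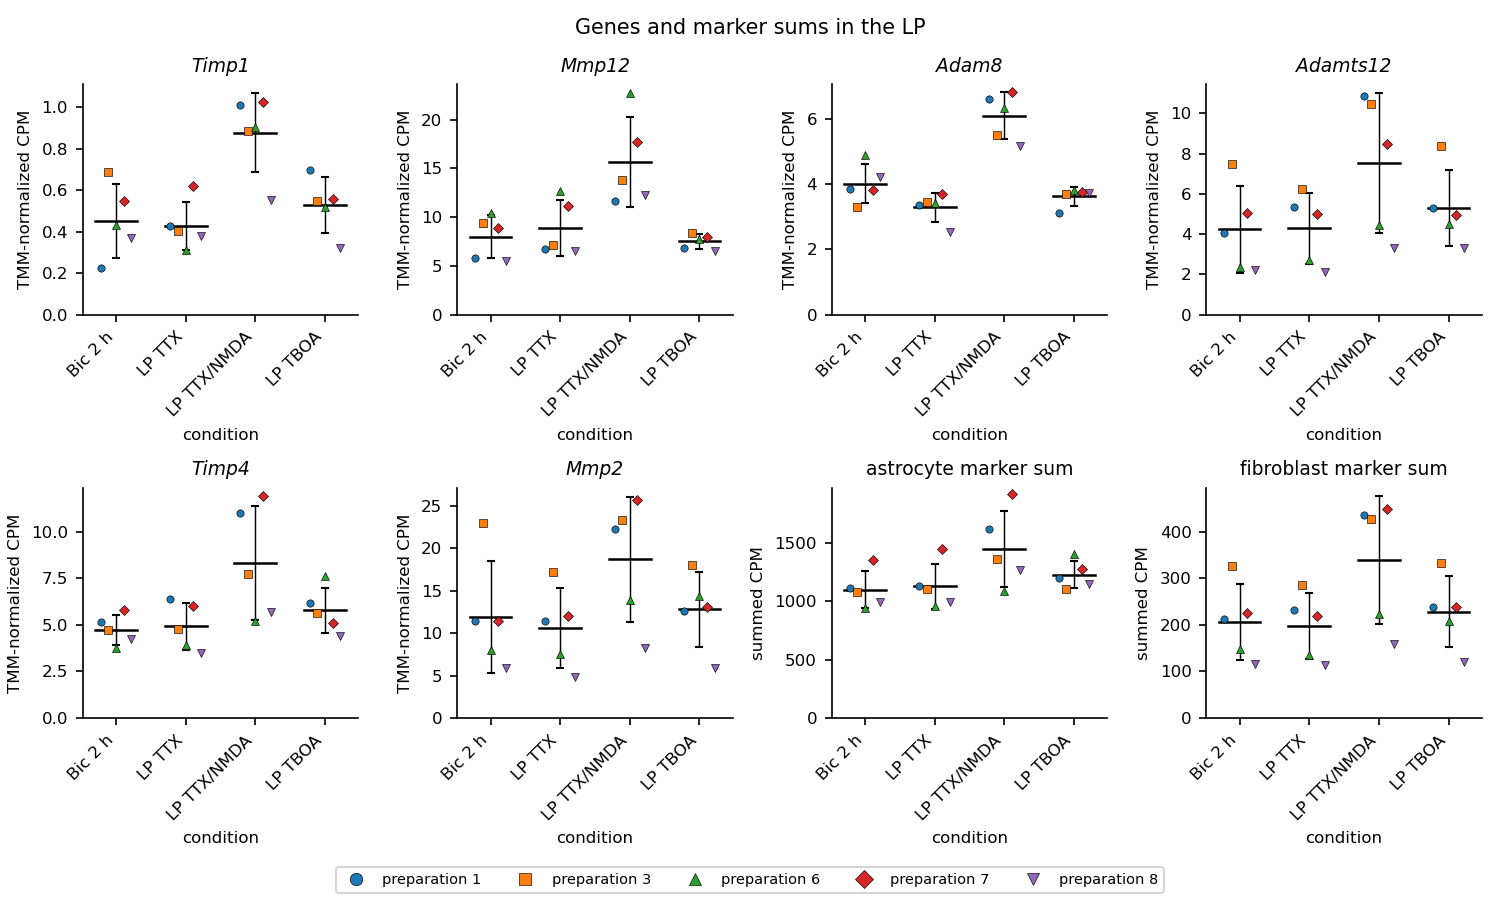
TMM-normalized CPM of 6 genes and the summed CPM of astrocyte and fibroblast markers in the LP conditions and 2 h Bic, with a symbol for each culture preparation and the mean ± SD (n = 5) in black. All 6 genes and both sums are highest on average in LP TTX/NMDA, and preparation 8 is the lowest of its group for Mmp2, Adamts12 and the fibroblast markers.

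The LP total effect, which sets TTX/NMDA against 2 h Bic and so shares libraries with both effects above, had 15 genes higher and 14 lower, against 11.7% and 11.1% of all genes, or 14 and 14 of 51 without Timp1. In the paired fit, 17 of the 52 (32.7%) were higher and 15 (28.8%) lower, against 30.9% and 25.7% of its genes. Adamts3 fell 3.62-fold (log2 fold change −1.86, SE 0.11, adjusted p = 5.16e-15) from 43.6, 43.2, 52.4, 42.6 and 32.5 CPM after 2 h Bic. Adamts1 was below its level after 2 h Bic in every library (log2 fold change −0.87, SE 0.092, adjusted p = 3.48e-09), and so was Adam11, which had 212, 202, 214, 195 and 165 CPM after 2 h Bic (log2 fold change −0.86, SE 0.074, adjusted p = 4.29e-11). Adamts8 was lower with overlap (−0.33, SE 0.082). Adam15 (−0.35, SE 0.064) and Mmp15 (−0.29, SE 0.088, lost without preparation 6 at an adjusted p of 0.078) were lower here and had not been called in the active effect.

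Among the genes with higher levels, Mmp12 (0.91, SE 0.16), Timp1 (0.89, SE 0.28), Adamts12 (0.85, SE 0.25) and Timp4 (0.81, SE 0.17) were highest in log2 fold change together with Mmp11. Mmp11, a stromelysin of stromal cells, had 0.835, 1.5, 0.661, 1.29 and 1.11 CPM after 2 h Bic and 2.87, 2.41, 1.11, 1.79 and 1.22 CPM with TTX/NMDA. The groups overlapped (log2 fold change 0.85, SE 0.24, adjusted p = 0.0079), and without preparation 1 the adjusted p was 0.10. Leaving out preparation 1 also ended the calls of Adamts12 (adjusted p = 0.063) and Mmp2 (0.090), and of Adamtsl5, which was also lost without preparation 6 or 8. The calls of Mmp19 (without 1), Mmp23 (3) and Adamts16 (1 or 6), which rose in 4 of 5 preparations, were lost in the same way. Adam8 (0.57, SE 0.14) and Adam17 (0.69, SE 0.11) were higher in every preparation without overlap. Adamts5 (0.57, SE 0.16), an aggrecanase, and Mmp19 (0.43, SE 0.14) were called in this comparison and not in the active effect. In it, 5 of 6 astrocyte, 5 of 7 oligodendrocyte lineage, 4 of 5 fibroblast, 2 of 6 endothelial and mural and 1 of 6 microglial markers were higher and 3 of 8 neuronal markers lower, with 1 neuronal marker higher and 1 astrocyte marker lower.

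Glutamate spillover with TBOA gave 0 genes higher and 0 lower with edgeR (0.0536% and 0.549% of all genes), and 0 with DESeq2. At an unadjusted p under 0.05, 2 genes were higher and 6 lower, against 7.93% of all genes in either direction. The nearest to the threshold were Adam11 (log2 fold change −0.25, SE 0.069, adjusted p = 0.087) and Adamts8 (log2 fold change −0.23, SE 0.069, adjusted p = 0.19). Adam11 had 175, 159.6, 152, 184 and 151 CPM with TBOA, a range that overlapped with 2 h Bic, and Adamts8 had 46.5, 45.4, 45.8, 51.6 and 41.6 CPM. The paired fit called these as the 2 lower genes, with 0 higher, against 2.23% and 0.442% of its genes. Their log2 fold changes in it were −0.25 and −0.22. Leaving out preparation 7 or 8 gave 1 call each without the block. Adamts3 with TBOA had 39.5 ± 4.52 CPM against 42.9 ± 7.08 CPM after 2 h Bic (log2 fold change −0.10, SE 0.086, adjusted p = 0.67), and Adamts1 235 ± 27 CPM against 271 ± 46.3 CPM (log2 fold change −0.20, SE 0.085, adjusted p = 0.55).

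The SP and LP effects were compared by the difference of their log2 fold changes. For the passive effect, 0 genes had a higher and 1 a lower value in the LP than in the SP, against 0.187% and 0.0699% of all genes, and neither DESeq2 nor an unadjusted p under 0.05 added any. This was Adamts1, at −0.20 in the SP and −1.32 in the LP (LP minus SP −1.12, SE 0.14, adjusted p = 2.51e-06). For the active effect, 1 gene was higher and 1 lower, against 0.722% and 1.85% of all genes. Adamts1 was lower with TTX/NMDA than with TTX in the SP and higher in the LP, at −1.40 and 0.45 (LP minus SP 1.86, SE 0.16, adjusted p = 2.24e-10). In the LP its mean was 149 ± 18.5 CPM with TTX/NMDA and 109 ± 20.1 CPM with TTX. Both were below the 177 ± 14 CPM after 1 h Bic, when TTX or TTX/NMDA was added. Adamts3 fell in both, from −0.94 to −1.77, and more so in the LP (LP minus SP −0.82, SE 0.14, adjusted p = 1.85e-04). Adamts6, called in the SP (0.73) and at −0.013 in the LP, did not pass the test of the difference (LP minus SP −0.73, SE 0.22, adjusted p = 0.064), nor did Adam17 (LP minus SP 0.47, SE 0.14, adjusted p = 0.061). Leaving out preparation 8 raised the number of genes from 2 to 6, DESeq2 called 7, and the paired fit called 11 higher and 9 lower, against 9.85% and 15.1% of its genes.

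**Figure D5:**
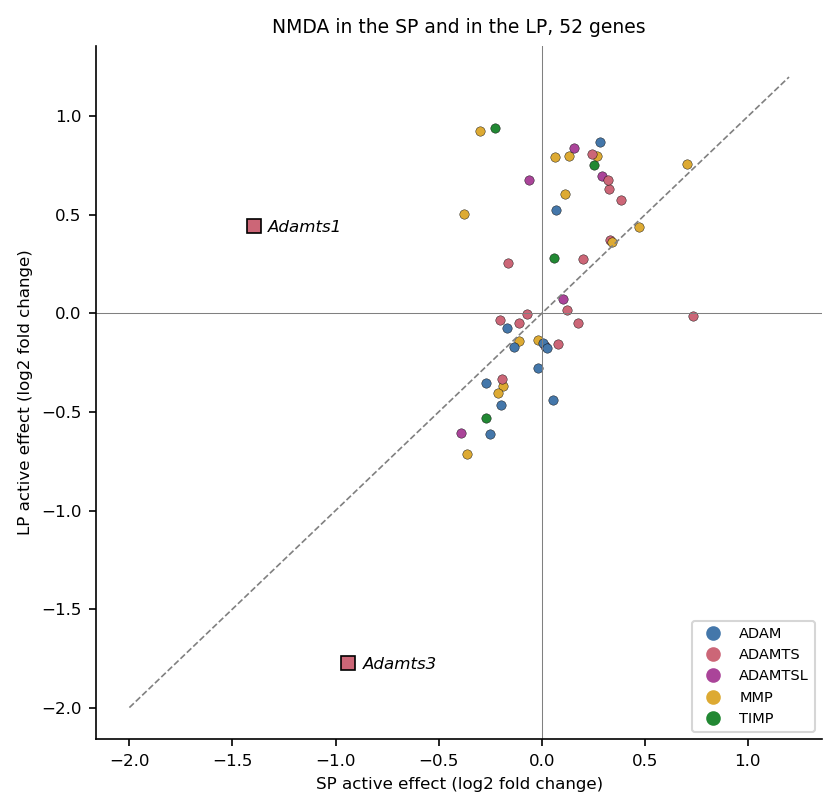
Log2 fold change of the 52 genes in the SP active effect (horizontal) and the LP active effect (vertical), coloured by family, with a dashed line where both are equal and squares for genes whose difference passed the test. Adamts1 is far above the line at −1.40 and 0.45, and Adamts3 below it at −0.94 and −1.77.

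The range between culture preparations was widest for Mmp3, Mmp13, Mmp2 and Adamts12. Mmp3, a stromelysin, had mean levels over the 9 conditions of 2.54, 2.70, 2.36, 0.917 and 0.586 CPM in preparations 1, 3, 6, 7 and 8, a 4.61-fold range. The collagenase Mmp13 had 0.537, 0.945, 0.888, 0.491 and 0.243 CPM, Mmp2 had 12.8, 18.1, 9.93, 14.4 and 5.58 CPM and Adamts12 had 5.22, 7.19, 3.19, 5.22 and 2.38 CPM. All 4 were highest in preparation 3 and lowest in preparation 8. The mean sum of the fibroblast markers was highest in preparation 3 as well, at 325 CPM, and lowest in preparation 8, at 117 CPM, with 246, 167 and 253 CPM in preparations 1, 6 and 7. Mmp12 differed in another way, with 6.33, 8.76, 13.5, 10.6 and 6.84 CPM and its highest level in preparation 6. The part of the markers in these differences was not tested.

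Of the 52 genes, 38 were called in at least 1 of the 9 comparisons and 14 in none, by the fit without the block. These 14 were Adam1a, Adam9, Adam12, Adamts2, Adamts4, Adamts9, Adamts13, Adamts18, Adamts20, Adamtsl2, Mmp3, Mmp9, Mmp13 and Mmp28. Several of them were called by the paired fit: Adam12 and Adamts9 after 2 h Bic, and Adam1a and Adam9 in the LP passive effect. In the LP active effect it called Adam9, Adamts4 (adjusted p = 0.048), Mmp3 (0.0020), Mmp13 (0.018) and Mmp28 (0.045). Without the block, the log2 fold changes of the 14 genes lay between −0.58 (Mmp13, glutamate spillover) and 0.93 (Mmp3, LP active effect). Mmp9, a gelatinase known from work on synaptic plasticity, had a mean of 1.97 ± 0.518 CPM in the control and 1.95 ± 0.406 CPM after 2 h Bic (log2 fold change 0.020, SE 0.21, adjusted p = 0.99). The injury-associated aggrecanase Adamts4 had 4.60 ± 0.380 CPM with LP TTX and 5.53 ± 1.14 CPM with LP TTX/NMDA (log2 fold change 0.26, SE 0.14, adjusted p = 0.21). Mmp3 had 1.5, 2.40, 1.97, 0.717 and 0.785 CPM and 5.32, 3.46, 3.13, 0.938 and 0.720 CPM in the same groups, where the spread between preparations was wide (log2 fold change 0.93, SE 0.36, adjusted p = 0.063).

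Genes that act with these enzymes were taken from 4 lists of matrix genes, membrane proteins that are shed, regulators of the proteases, and the Lgi ligands. The matrix genes are proteoglycans and other matrix substrates, together with hyaluronan synthases such as Has2 and Has3, which are not substrates. Of 17 matrix genes, 6 were higher and 0 lower after 2 h Bic, against 4.24% and 4.78% of all genes tested. The higher ones included Thbs1 (0.95, SE 0.18), aggrecan (Acan, 0.90, SE 0.16) and fibronectin (Fn1, 0.83, SE 0.13). In the LP active effect, 6 were higher and 3 lower, against 11.6% and 11.8% of all genes tested. Brevican (Bcan, 0.91, SE 0.18) and the hyaluronan synthase Has2 (0.84, SE 0.27) were among the former and Has3 (−0.96, SE 0.15) among the latter. In the SP active effect, 2 were higher and 1 lower, against 0.956% and 3.32% of all genes: Hapln1 (0.53, SE 0.16), Tnc (0.44, SE 0.12) and Has3 (−0.48, SE 0.13). The list's median log2 fold change was 0.25 after 2 h Bic and 0.45 in the LP active effect, against −0.0061 and 0.11 over all genes tested.

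Of 20 shed membrane proteins, 4 were higher and 1 lower after 2 h Bic, against 4.24% and 4.78% of all genes tested. The EGF receptor ligand Areg (1.61, SE 0.28) and Notch1 (0.47, SE 0.11) were among the higher ones, and Nlgn3 (−0.60, SE 0.084) was lower. In the LP active effect, 4 were higher and 10 lower, against 11.6% and 11.8% of all genes. The lower ones included the synaptic adhesion protein Nlgn1 (−0.99, SE 0.079), and the higher ones Notch1 (0.97, SE 0.15) and the TNF receptor Tnfrsf1a (0.83, SE 0.17). Nlgn1 (−0.60, SE 0.070), Tgfa (−0.39, SE 0.093) and Nrg1 (−0.36, SE 0.10) were among 4 that were lower in the SP active effect, where 1 was higher, against 3.32% and 0.956% of all genes. In the LP passive effect, Il6ra alone was higher (0.60, SE 0.13), against 3.03% of all genes. In the LP total effect 5 were higher and 8 lower, against 11.7% and 11.1% of all genes, with Icam5 (−0.78, SE 0.076) among the lower ones. The list's median in the LP active effect was −0.18, against 0.11 over all genes tested.

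Of 18 protease regulators, 4 were higher and 2 lower in the LP active effect, against 11.6% and 11.8% of all genes tested. Rhbdf2 (1.07, SE 0.27) and Frmd8 (0.59, SE 0.14), which help ADAM17 to reach the cell surface, and the broad protease inhibitor A2m (0.67, SE 0.19) were among the higher ones. In the LP total effect, 4 were higher and 3 lower, against 11.7% and 11.1% of all genes, with the proprotein convertase Pcsk5 lower (−0.56, SE 0.078). The list's median in the LP active effect was 0.10, near the 0.11 over all genes tested. Of the 4 Lgi ligands of Adam22 and Adam23, Lgi1 was lower in the LP active effect (−0.24, SE 0.074) and Lgi4 higher in the LP total effect (0.86, SE 0.28).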

How the data were processed

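RNA of primary hippocampal neurons was measured in 45 libraries of 9 conditions and 5 culture preparations. The authors deposited raw, unnormalized counts of reads per gene. Per the labels and the paper's methods, poly-A RNA was made into strand-specific libraries, sequenced single-end with 75 cycles, aligned by STAR 2.5.4b to GRCm38 with Ensembl 94, and assigned to genes by featureCounts 1.6.5 with strand taken into account. Reads with several positions or several overlapping genes were left out by the authors, so overlapping or closely similar genes lack them.

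Gene symbols came from GENCODE M21 (54495 of 54532 IDs matched). CPM for the minimum used library totals, and other levels used TMM effective library sizes. Each comparison was fitted on the counts of its own conditions with edgeR (4.0.16; R 4.3.3), by glmQLFit and glmQLFTest with Benjamini-Hochberg adjustment over all genes with at least 1 read. The SP was compared with the LP by an interaction contrast. Scripts were tested on simulated data. The preparation numbers in the labels pair the libraries: those of the same preparation deviated together from their condition means (mean correlation 0.45 across 13601 genes). The mean of −0.11 between preparations follows from taking deviations from the mean of 5 libraries and is no separate evidence. p-values measure the spread between these 5 preparations. Alternatives were RLE size factors, filterByExpr, the replicate block with filterByExpr, DESeq2 (1.42.0), leaving out each preparation, and a fit over all 45 libraries. Depth per library (11316580 to 81129276 counts) makes genes near 0.5 CPM the least precise.

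The genes and lists were chosen with earlier results of these data known. Full values were given to the 12 genes with the largest called log2 fold change of at least 0.5 in any of the 9 comparisons, and up to 3 called genes were named per list and comparison. Other genes named were picked after their values were seen or as the highest of a family. Promoter sequences came from RefSeq (GRCm38.p6).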

Additional observations from a re-analysis of the deposited data

Results flagged for a closer look

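Among the 12 genes described in full, 108 groups of 5 libraries were examined for a library that lay far from the other 4, and 4 such values were found, where chance gives about 1 in 20. In SP TTX, preparation 6 had 1.27 CPM of Timp1 against 0.291 to 0.491 in the others, and 6.50 CPM of Adam8 against 3.20 to 4.06. The same library had a summed level of 1543 CPM for astrocyte markers, the highest of the 5 in SP TTX. It was also the highest for microglial markers (8.28 CPM) and for endothelial and mural markers (23.6 CPM). For neuronal, oligodendrocyte lineage and fibroblast markers it was not. In LP TBOA, preparation 1 had 3.12 CPM of Adam8 against 3.70 to 3.81, and after 0.5 h Bic, preparation 1 had 5.76 CPM of Timp4 against 3.37 to 4.02. The passive effect on Adamts1 differed between the protocols by −1.12 (LP minus SP, log2), its active effect by 1.86, and the active effect on Adamts3 by −0.82, all by the test of the difference itself.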

How the results depend on the processing

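No called difference of a named gene changed its direction under the alternatives run. Of 88 called pairs of gene and comparison, 3 of them interaction tests, the call was lost for 2 with RLE size factors, 6 with DESeq2, 12 with filterByExpr, 0 with the replicate block, and 5 to 21 when a preparation was left out, with 21 lost without preparation 1. The fit over all 45 libraries, not made for the interactions, lost 13 of 85. Numbers of called genes moved by over 1.5 times as follows. With the replicate block and filterByExpr, 15 genes against 9 were called after 2 h Bic, 13 against 8 in the SP active effect, 14 against 5 in the LP passive effect, 2 against 0 in glutamate spillover and 20 against 2 in the difference of the active effects. The block changed no other count by that much. The filterByExpr filter alone gave 2 against 4 after 1 h Bic and 5 against 2 in the difference of the active effects, for which DESeq2 gave 7. The fit over all 45 libraries gave 1 against 5 in the LP passive effect. When each preparation was left out, counts ranged from 2 to 4 after 1 h Bic (2 without preparation 1 or 8), 6 to 9 after 2 h Bic (6 without 6 or 7), 0 to 2 in the SP passive effect (1 without 3, 2 without 8), 5 to 9 in the SP active effect (5 without 7), 2 to 5 in the LP passive effect (2 without 3, 6 or 7), 21 to 33 in the LP active effect, 22 to 31 in the LP total effect, 0 to 1 in glutamate spillover (1 without 7 or 8) and 2 to 6 in the difference of the active effects (6 without 8). The cause of these shifts was not tested. Membership stayed at 52 genes with TMM library sizes. RLE size factors moved the median of all genes by at most 0.014 on the log2 scale. Depth limits genes near 0.5 CPM such as Timp1, Mmp13 and Adamtsl4.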

Other observations

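The 31 family genes under the minimum each averaged under 0.5 CPM. Of them, 4 had no read in any library (Adam6a, Adam24, Adam39 and Mmp7), and the highest after Adam33 and Mmp25 were Adam21 (0.276 CPM), Adam32 (0.253 CPM) and Adam4 (0.206 CPM). Mmp10, a stromelysin, had 0.198 CPM and Adamts19, the ADAMTS gene left out, 0.157 CPM.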
